A study of Mus musculus with 20 samples.

Results

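Genes that mark the resident macrophages of the liver, or macrophages in general, were followed in phenobarbital-treated and vehicle-treated mouse livers. They were Clec4f, Vsig4, Marco, Cd5l, Timd4, Cd163, C1qa, C1qb, C1qc and Csf1r. These are 10 genes of 18193 genes with a symbol of their own, and they were read by all 15 probe sets that the platform annotation gives to these symbols, of 45037 probe sets in the table. Liver RNA of 20 male CD-1 mice, an outbred stock, had been labelled with biotin and measured on Affymetrix 3' expression arrays. The 4 groups held 5 mice each: phenobarbital sodium (PB) for 90 days, vehicle (CMC) for 90 days, PB for 28 days and vehicle for 28 days. PB was given once a day by mouth at 80 mg/kg/day, the vehicle was 0.5% methylcellulose 15 given in the same way at 0 mg/kg/day of PB, and both came at 10 mL/kg. The left lateral lobe was collected 1 day after the last dose, and each array is 1 mouse. The spread between arrays therefore holds differences between mice and differences in RNA and array handling, which cannot be told apart. The labels give no age. The 90-day and 28-day mice differed in dosing time, in age at necropsy for equal ages at the start, and in any difference between the occasions of necropsy, which cannot be told apart.

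Kupffer cells are macrophages that sit inside the liver sinusoids, take up particles, bacteria and aged red cells from the blood, and maintain themselves in the healthy adult liver largely by division. Their survival depends on signals through the receptor for colony-stimulating factor, which Csf1r encodes. In the mouse, the lectin receptor Clec4f is made by Kupffer cells and hardly by any other cell, Timd4 marks the long-resident ones, and Vsig4 is a complement receptor of resident tissue macrophages. Phenobarbital acts in the liver mainly on hepatocytes, through the constitutive androstane receptor, which raises enzymes of drug metabolism.

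The sequence upstream of 4 markers is shown first. For Cd5l, C1qb and C1qc the PB groups did not overlap between 90 and 28 days by their brightest probe set. Timd4 was the marker whose promoter held the rarest of the motifs searched. RefSeq promoter sequences of build GRCm38.p6 were listed for 8 of the 10 genes, while C1qa and Csf1r were not in the table. The 250 bases before the transcription start are given written 5′ to 3′ on the strand of the gene, at chr3:87357631-87357880 on the plus strand for Cd5l, chr4:136886201-136886450 on the minus strand for C1qb, chr4:136892915-136893164 on the minus strand for C1qc and chr11:46810549-46810798 on the plus strand for Timd4. Capitals mark the matches to 3 motifs, searched on both strands: the purine box GAGGAA that the myeloid factor PU.1 binds, the composite of an ETS and an IRF site, which reads GGAA, any 2 bases and GAAA, and TGCTGA, the core of the element bound by Maf factors.
Cd5l: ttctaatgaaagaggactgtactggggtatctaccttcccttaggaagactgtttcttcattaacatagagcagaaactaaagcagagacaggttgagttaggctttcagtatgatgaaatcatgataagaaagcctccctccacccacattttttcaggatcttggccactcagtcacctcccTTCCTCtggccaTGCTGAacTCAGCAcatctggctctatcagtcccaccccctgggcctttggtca
C1qb: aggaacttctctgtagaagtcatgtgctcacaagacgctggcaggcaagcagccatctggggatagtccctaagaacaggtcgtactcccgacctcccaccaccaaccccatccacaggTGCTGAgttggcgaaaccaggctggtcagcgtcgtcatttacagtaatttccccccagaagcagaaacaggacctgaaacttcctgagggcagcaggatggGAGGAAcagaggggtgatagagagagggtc
C1qc: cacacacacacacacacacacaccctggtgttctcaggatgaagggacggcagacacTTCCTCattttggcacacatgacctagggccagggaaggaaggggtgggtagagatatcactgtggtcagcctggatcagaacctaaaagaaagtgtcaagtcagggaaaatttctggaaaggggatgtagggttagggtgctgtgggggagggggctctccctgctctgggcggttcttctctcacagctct
Timd4: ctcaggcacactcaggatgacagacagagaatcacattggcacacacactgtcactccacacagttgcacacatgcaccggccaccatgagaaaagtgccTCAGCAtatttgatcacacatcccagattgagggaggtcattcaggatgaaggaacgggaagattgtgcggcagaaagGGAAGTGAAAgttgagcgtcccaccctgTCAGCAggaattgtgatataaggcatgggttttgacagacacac
The purine box was found in 5 of the 8 promoters, those of Marco, Cd5l, C1qb, C1qc and Vsig4, against 23.3% of 32851 promoters of this length. TGCTGA was found in 4 of the 8, those of Cd5l, C1qb, Clec4f and Timd4, against 16.1% of all promoters, and Cd5l held it as a pair of matches in opposite orientation. The composite was found in 1 of the 8, Timd4, against 2.3% of all. These are matches of letters and were not tested as binding sites. In the RefSeq gene table of the same build, C1qb, C1qc and C1qa follow each other in that order on chromosome 4. The gene table ends C1qc, a gene of the minus strand, at 136892936, inside the C1qc window printed above. The start used for that window is thus another than that of the gene table.

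The values were log2 intensities made by RMA, a method that corrects background, sets the arrays to 1 distribution and combines the probes of a probe set, so that 1 unit is a factor of 2. Levels of different probe sets are not comparable, since each has its own binding strength, and only differences of 1 probe set between mice are compared. Each gene was represented by its probe set with the highest mean. All 15 probe sets lay above the 25th percentile of their array, taken here as a mark of background (3.96 to 4.26), on all 20 arrays, and all 10 genes were among the 16054 that passed the filter on low values. The marker with the narrowest cell type was present in the tissue labelled liver: Clec4f averaged 4.59 to 5.47 log2 units above that percentile in the 4 groups. Timd4 averaged 0.84 to 1.67 units above it. A pair of arrays stood apart from the rest on the first principal component, which held 55.6% of the variance: PB 28-day replicate 5 had a score of -107.9 and PB 90-day replicate 3 a score of -65.2, against -39.8 for the next array. Their 75th percentiles, 6.62 and 6.81, were also the lowest of the 20 arrays, with 6.87 for the next. Marker differences that changed sign or size by over 1.5 times without these 2 arrays are given both ways. Of the 42 other genes named below, the PB effect changed sign without them in 3 at 90 days and in 10 at 28 days. Values without these arrays follow beside some of the 42 genes, and the others are given with all arrays only. PB had its known action in these livers: Cyp2b10, the standard target of the receptor, rose by 5.88 ± 0.62 log2 units at 90 days (limma, standard error, adjusted p = 2.79e-05) and by 4.90 ± 0.62 at 28 days (adjusted p = 0.000572). Cyp2c55, another P450 gene, rose by 5.18 ± 0.30 at 90 days and by 5.35 ± 0.30 at 28 days (adjusted p = 2.16e-09 and 1.15e-09).

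None of the 10 markers was called different between PB and vehicle livers at either duration, where a call is an adjusted p under 0.05 over all 16054 genes in limma (moderated test, two-sided, Benjamini and Hochberg). At 90 days 0 of 10 were called, against 0.143% of all genes, and at 28 days 0 of 10, against 0.0498%. No marker was called in the mean of both PB effects, against 0.212% of all genes, and none in the difference between them, against 0% of all genes. At an unadjusted p under 0.05, 2 markers were lower at 90 days, Marco and Cd5l, against 1.38% of all genes. No marker reached that at 28 days.

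At 90 days the estimates leaned downwards: 9 of 10 were negative, with a median of -0.27 log2 units, where the median of all genes was 0.03 and 43.8% of genes were negative. At 28 days 8 of 10 were positive, with a median of 0.17, where that of all genes was 0.00. In bulk liver RNA, fewer Kupffer cells and less RNA per cell cannot be told apart. The lean depended on single mice. Without PB 90-day replicate 3, 10 of 10 were negative at 90 days and the median was -0.45. Without CMC 90-day replicate 1, 8 were negative and the median was -0.06. At 28 days, 5 of 10 were positive without PB 28-day replicate 5 (median 0.02), and 6 of 10 were negative without CMC 28-day replicate 5 (median -0.06).

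**Figure D1:**
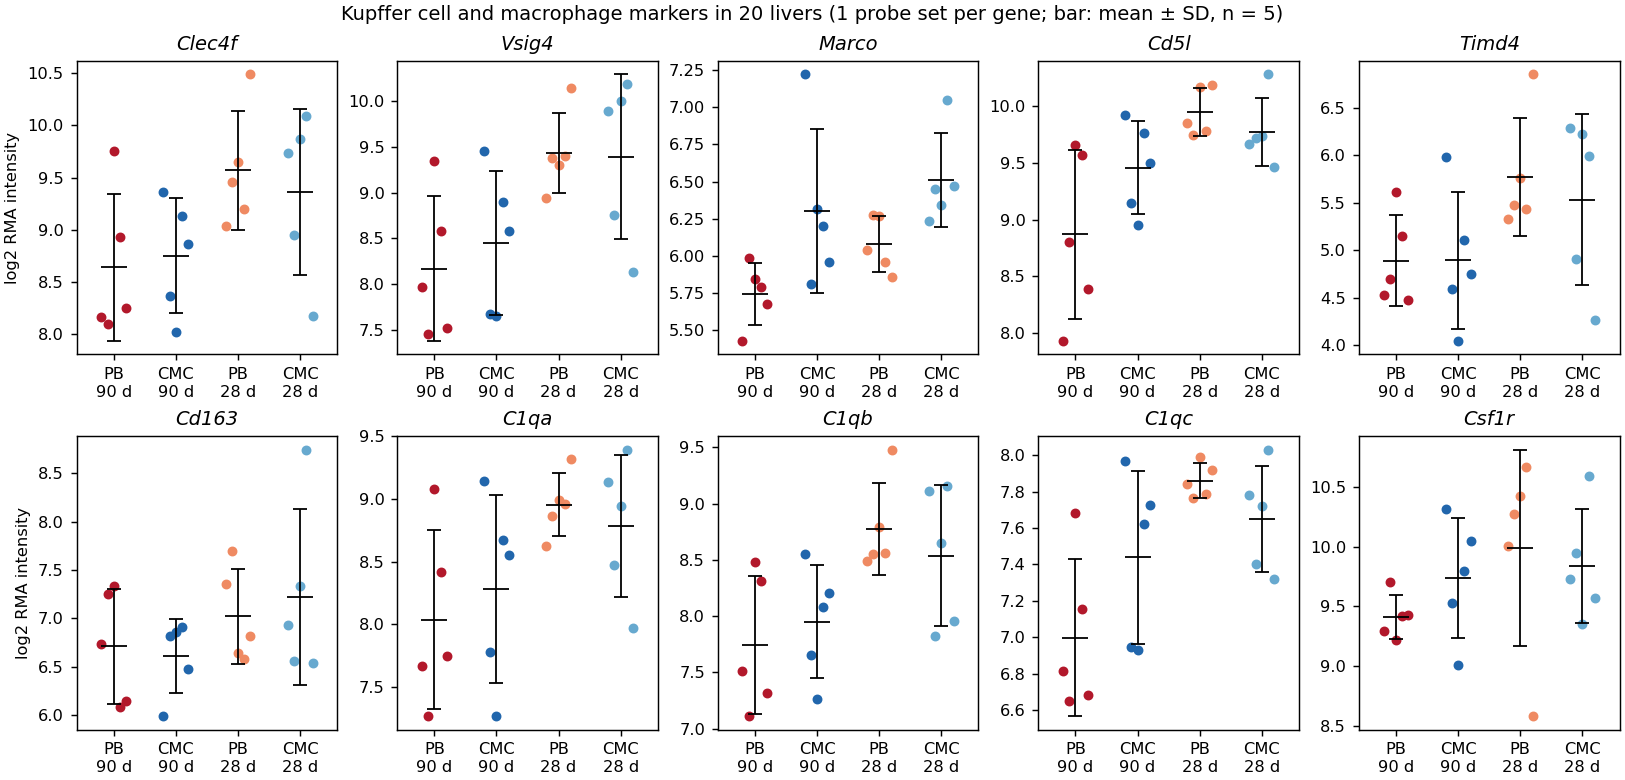
Log2 RMA intensity of each marker (y axis, a separate scale per panel) in the 5 mice of each group (x axis: PB 90 d, CMC 90 d, PB 28 d, CMC 28 d); points are mice in order of replicate number, and bars are the group mean ± SD. In most panels both 28-day groups lie above both 90-day groups on average while the groups overlap. In the Marco panel the PB groups average below the vehicle groups of the same duration.

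The scavenger receptors gave the marker with the smallest p and one of those near 0. Marco, a receptor for bacteria and particles on macrophages, had lower means under PB at both durations by its brighter probe set, 1449498_at, without a call. At 90 days it measured 5.42, 5.98, 5.84, 5.79 and 5.67 in PB livers, against 7.22, 5.81, 6.31, 6.20 and 5.96 in vehicle livers. At 28 days it measured 6.04, 6.28, 6.26, 5.96 and 5.86 in PB livers, against 6.23, 6.45, 6.34, 7.05 and 6.47 in vehicle livers. The groups overlapped only at their edges at each duration. The difference was -0.56 ± 0.21 log2 units at 90 days (adjusted p = 0.816 in limma) and -0.43 ± 0.21 at 28 days (adjusted p = 1). The mean of both effects was -0.49 ± 0.15 (95% confidence interval -0.80 to -0.18, adjusted p = 0.529), rank 101 of 16054 genes by p. The highest mouse of each vehicle group carried part of it: the difference was -0.33 at 90 days without CMC 90-day replicate 1 and -0.29 at 28 days without CMC 28-day replicate 4. The other probe set of Marco, 1458297_s_at, did not show a lower mean under PB with all arrays. Without the 2 arrays that stood apart, the difference of 1458297_s_at was -0.05 at 90 days and 0.13 at 28 days. Its values on all arrays were 4.87 ± 0.25 in PB and 4.83 ± 0.26 in vehicle livers at 90 days, and 5.15 ± 0.17 in PB and 5.03 ± 0.25 in vehicle livers at 28 days (SD, n = 5 each). That probe set lay 0.82 to 1.05 log2 units above the 25th percentile of the arrays, and 1449498_at 1.69 to 2.45 units. Over mice within groups the pair of probe sets had a Pearson correlation of 0.23. Averaged over both, Marco differed by -0.26 at 90 days and -0.15 at 28 days. Which probe set follows the Marco transcript more closely was not tested.

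Cd163, a macrophage receptor that takes up haemoglobin, had estimates near 0. It averaged 6.71 ± 0.59 in PB and 6.61 ± 0.39 in vehicle livers at 90 days, and 7.02 ± 0.49 in PB and 7.22 ± 0.91 in vehicle livers at 28 days (SD, n = 5 each). The PB effects of 0.10 and -0.20 had intervals of -0.66 to 0.86 and -0.96 to 0.56, and the 90-day effect was -0.06 without the 2 arrays that stood apart. The 28-day vehicle group held the highest single value, 8.75 in replicate 4, with the other 4 mice between 6.54 and 7.34.

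Cd5l, a secreted protein of tissue macrophages that protects them from cell death, had a negative estimate under PB at 90 days and a positive one at 28 days. At 90 days it measured 7.93, 8.80, 9.66, 9.57 and 8.38 in PB livers, against 9.93, 9.14, 8.95, 9.77 and 9.50 in vehicle livers. At 28 days it measured 9.85, 9.75, 10.17, 9.78 and 10.19 in PB livers, against 9.67, 9.72, 9.74, 10.28 and 9.47 in vehicle livers. The 90-day PB livers spread over 1.73 log2 units, from below to within the vehicle range. The effect was -0.59 ± 0.28 at 90 days (adjusted p = 0.816) and 0.17 ± 0.28 at 28 days (adjusted p = 1). These were -0.79 and 0.11 without the 2 arrays that stood apart. The difference between these effects, -0.76, was not called (adjusted p = 1).

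The receptors that identify resident Kupffer cells gave estimates within 1 standard error of 0 under PB with all arrays in the fit. Clec4f measured 8.17, 8.10, 9.75, 8.93 and 8.25 in PB livers at 90 days, against 9.36, 8.37, 8.02, 9.14 and 8.87 in vehicle livers. At 28 days it measured 9.04, 9.46, 9.65, 9.20 and 10.49 in PB livers, against 9.73, 8.95, 9.87, 10.09 and 8.17 in vehicle livers. The groups interleaved, and the effects were -0.11 ± 0.39 at 90 days and 0.21 ± 0.39 at 28 days. Their intervals, -0.92 to 0.70 and -0.60 to 1.02, include changes of close to a factor of 2. Vsig4 differed by -0.28 ± 0.43 at 90 days and 0.04 ± 0.43 at 28 days, and Timd4, a receptor for phosphatidylserine on dying cells, by -0.00 ± 0.40 and 0.24 ± 0.40. Without the 2 arrays that stood apart the 28-day difference was -0.02 for Clec4f, -0.13 for Vsig4 and -0.03 for Timd4, and the 90-day difference was -0.39, -0.57 and -0.18.

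The 3 chains of C1q, the recognition molecule of the classical complement pathway that macrophages secrete, had estimates of like sign. C1qa, C1qb and C1qc differed by -0.25 ± 0.36, -0.21 ± 0.32 and -0.44 ± 0.22 at 90 days, and by 0.17 ± 0.36, 0.24 ± 0.32 and 0.21 ± 0.22 at 28 days. C1qc had the smallest spread of the 3 and the smallest p at 90 days (adjusted p = 0.816). It measured 6.82, 6.65, 7.68, 7.15 and 6.68 in PB livers, against 7.97, 6.95, 6.93, 7.62 and 7.73 in vehicle livers. Of the PB mice, replicate 3 was the only one in the upper part of the vehicle range, and without it and PB 28-day replicate 5 the difference was -0.61 ± 0.20 (adjusted p = 0.998). At 28 days the C1qc values were 7.84, 7.77, 7.99, 7.78 and 7.92 in PB livers, against 7.78, 7.40, 7.72, 8.03 and 7.32 in vehicle livers. All 3 probe sets of C1qb gave negative estimates at 90 days (-0.31 to -0.15) and positive ones at 28 days (0.13 to 0.24). The C1qa effects were -0.51 at 90 days and 0.08 at 28 days, and the C1qb effects -0.39 and 0.06, without the 2 arrays that stood apart. The other C1qb probe sets then gave -0.34 and 0.05 (1434366_x_at) and -0.54 and 0.11 (1417063_at).

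Csf1r, the growth factor receptor, was read by 3 probe sets that gave the same signs under PB. The differences at 90 days were -0.33 for 1419872_at, -0.20 for 1419873_s_at and -0.08 for 1423593_a_at, and those at 28 days were 0.15, 0.23 and 0.14 (adjusted p between 0.859 and 1 over all probe sets in the table). PB 28-day replicate 5 was the lowest of its group by 1419872_at and 1419873_s_at and drew these 28-day differences down. Without the 2 arrays that stood apart the 28-day differences were 0.50, 0.47 and 0.17 in the same order, while those at 90 days were -0.28, -0.20 and -0.10. For 1419872_at the difference between the effects was -0.48 with all arrays and -0.78 without the 2, and neither was called (adjusted p = 1 and 0.976). The receptor's ligands were measured too: Csf1 differed by 0.24 ± 0.16 at 90 days and -0.05 ± 0.16 at 28 days, and Il34 by 0.20 ± 0.15 and 0.21 ± 0.15. Spi1, which encodes PU.1, differed by -0.03 ± 0.13 and 0.13 ± 0.13. Of the 11 tested genes of this axis and of the factors that set macrophage identity, 0 were called under PB.

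**Figure D2:**
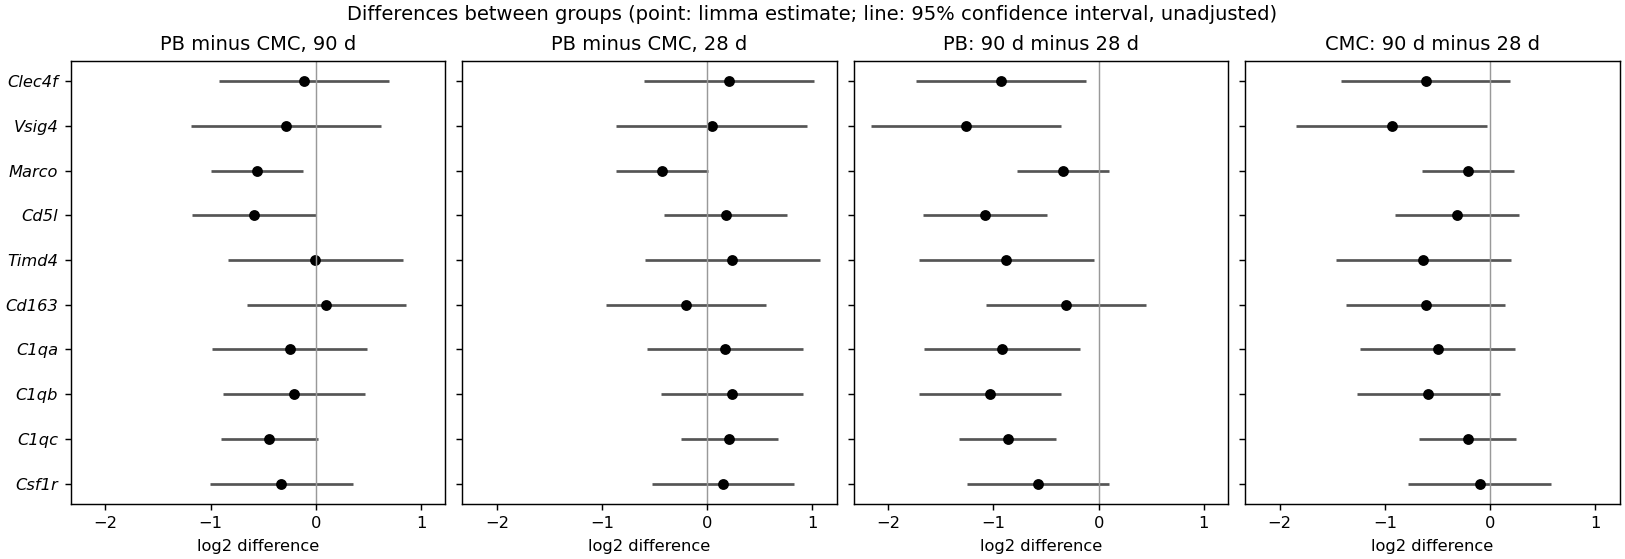
Differences in log2 units (x axis) for each marker (rows) in 4 comparisons (panels): PB minus CMC at 90 days, PB minus CMC at 28 days, 90 minus 28 days under PB and 90 minus 28 days in the vehicle; points are limma estimates and lines 95% confidence intervals, unadjusted. Marco lies below 0 in the first 2 panels, and all 10 markers lie below 0 in the last 2.

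Between the durations, the markers had lower means at 90 days in both arms, again without a call. Under PB, 10 of 10 markers were lower after 90 than after 28 days, with a median of -0.90 log2 units, where the median of all genes was 0.00 and 49.7% of genes were negative. In the vehicle groups, 10 of 10 were lower, with a median of -0.54, where the median of all genes was -0.03 and 54.2% were negative. No marker was called in either (0 of 10, against 0.00623% of all genes under PB and 0% in the vehicle). At an unadjusted p under 0.05, 7 of 10 were lower under PB, against 2.27% of all genes, and 1 of 10 in the vehicle, Vsig4, against 3.66%. As most of the markers vary together between mice, their shared sign does not amount to 10 separate observations. The 2 durations differed also in the first principal component: its median score was 16.8 (-65.2 to 44.2) in PB 90-day livers, 26.2 (11.7 to 34.0) in CMC 90-day livers, 10.0 (-107.9 to 17.4) in PB 28-day livers and 1.4 (-39.8 to 22.6) in CMC 28-day livers. With that score as a covariate all 10 stayed negative in both arms. The median was then -0.73 under PB and -0.20 in the vehicle, and the lowest adjusted p of a marker under PB was 0.305 in limma. The vehicle median of -0.54 thus moved toward 0 with the covariate, more than the PB median did.

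Under PB, Cd5l, C1qb and C1qc by their brightest probe set were lower in every 90-day mouse than in every 28-day mouse. These were 3 of 10 markers, against 0.255% of all genes. C1qc averaged 7.00 ± 0.43 in PB 90-day livers and 7.86 ± 0.09 in PB 28-day livers (SD, n = 5 each), a difference of -0.86 ± 0.22 log2 units (adjusted p = 0.971), rank 13 of 16054 genes. Cd5l averaged 8.87 ± 0.75 and 9.95 ± 0.21 in the same groups, a difference of -1.08 ± 0.28 (adjusted p = 0.971), rank 16. C1qb measured 7.51, 7.11, 8.48, 8.31 and 7.31 in PB 90-day livers, against 8.49, 8.55, 8.79, 8.57 and 9.48 in PB 28-day livers, so the groups met at 8.48 and 8.49. Its difference was -1.03 ± 0.32 (adjusted p = 0.971). In the vehicle groups these genes differed by -0.21 ± 0.22 for C1qc, -0.32 ± 0.28 for Cd5l and -0.59 ± 0.32 for C1qb, and their groups overlapped. PB and vehicle were not called different in this change: the contrast between them was -0.65 ± 0.31 for C1qc, -0.76 ± 0.40 for Cd5l and -0.44 ± 0.46 for C1qb. In the comparison of 90 with 28 days under PB, about as many genes had p-values this small as chance alone gives, hence the adjusted p of 0.971. The ranks of C1qc and Cd5l are therefore no evidence of a change by themselves.

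Vsig4 had the largest difference between durations in both arms. It measured 7.97, 7.46, 9.34, 8.58 and 7.52 in PB 90-day livers, against 8.94, 9.38, 9.30, 9.39 and 10.14 in PB 28-day livers, a difference of -1.26 ± 0.43 (adjusted p = 0.971). In vehicle livers it measured 9.46, 7.68, 7.65, 8.89 and 8.59 at 90 days, against 9.89, 8.75, 9.99, 10.18 and 8.13 at 28 days, a difference of -0.94 ± 0.43 (adjusted p = 0.636). The overlap under PB came from replicate 3 of the 90-day mice, the array that stood apart, whereas the vehicle groups overlapped over most of their range. Clec4f differed by -0.93 ± 0.39 under PB and -0.61 ± 0.39 in the vehicle, C1qa by -0.92 ± 0.36 and -0.50 ± 0.36, and Timd4 by -0.88 ± 0.40 and -0.64 ± 0.40. Marco (-0.34 and -0.21) and Cd163 (-0.31 and -0.61) had smaller estimates under PB. Csf1r differed by -0.58 and -0.10. Without the 2 arrays that stood apart the difference under PB was -0.88 for Csf1r (adjusted p = 0.999), which then was among those at an unadjusted p under 0.05, and -0.52 for Cd163.

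With all arrays, the order of the group means was the same for 8 of the 10 markers. It was PB 28 days highest, then CMC 28 days, CMC 90 days and PB 90 days. Neighbours in this order differed by less than the larger of their SDs in all 8, except for Vsig4 between the 2 vehicle groups, where the step of 0.94 was 1.04 SD. The exceptions to the order were Marco, with CMC 28 days highest, then CMC 90 days, PB 28 days and PB 90 days, and Cd163, with CMC 28 days, PB 28 days, PB 90 days and CMC 90 days. For Marco the step between the 2 PB groups was 1.60 times the larger SD. The first and the last group in the order of the 8, PB at 28 and at 90 days, each hold 1 of the arrays that stood apart. When these were left out, Clec4f (-0.02), Vsig4 (-0.13) and Timd4 (-0.03) no longer kept that order, as PB 28 days averaged below CMC 28 days. Without these 2 arrays, 10 of 10 markers were again lower at 90 days under PB, with a median of -0.999, where the median of all genes was -0.01. Leaving out any single array kept 10 of 10 negative under PB (median -1.12 to -0.79) and 9 or 10 in the vehicle (median -0.72 to -0.29). The vehicle median was -0.29 without CMC 28-day replicate 4 and -0.33 without CMC 90-day replicate 3.

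Individual mice of 1 group differed more in these markers than in most genes. The within-group SD was 0.75 log2 units for Vsig4, at percentile 95.5 among genes tested, 0.70 for Timd4 and 0.66 for Clec4f, against a median of 0.27 over all genes. Marco and C1qc had the smallest, both 0.35, at percentiles 66.9 and 68.1. The variation was shared by the markers of an array. CMC 90-day replicate 1 was the highest of its group in 9 of 10 markers and CMC 90-day replicate 3 the lowest in 8. In the 28-day vehicle group replicate 4 was the highest in 9 and replicate 5 the lowest in 7. In the PB groups the highest mice were the 2 that stood apart, replicate 3 in 8 markers at 90 days and replicate 5 in 6 at 28 days.

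**Figure D3:**
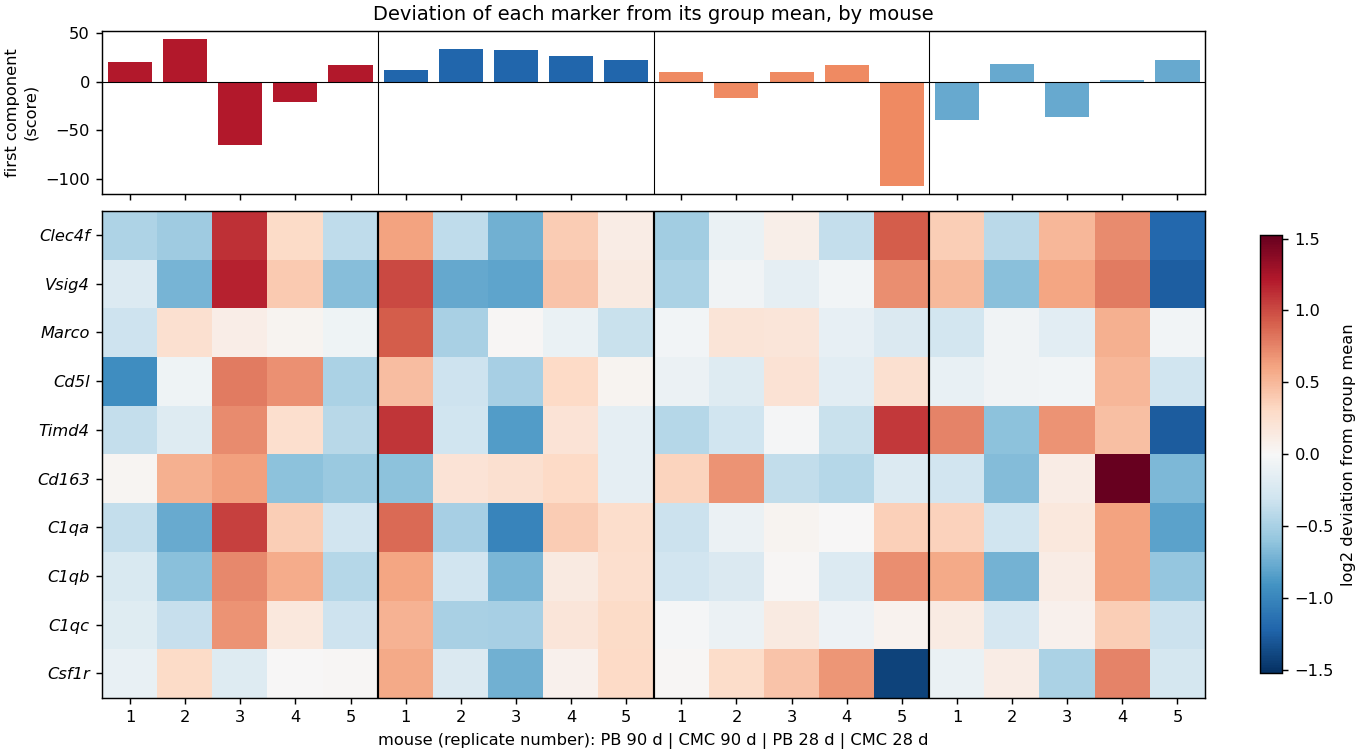
Top: score of each array on the first principal component of all genes (y axis). Below: log2 deviation of each marker (rows) from its group mean (colour scale) in each mouse (x axis, replicate number within the groups PB 90 d, CMC 90 d, PB 28 d, CMC 28 d). Columns of 1 colour show mice in which most markers lie high or low together, such as CMC 90-day replicates 1 and 3; Marco, Cd163 and Csf1r break the pattern in several mice.

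A set of 7 markers, Clec4f, Vsig4, Timd4, Cd5l, C1qa, C1qb and C1qc, were high or low together in the same mice. Their 21 pairs had Pearson correlations of 0.65 to 0.96 (median 0.88) in deviations from the group means over 20 arrays. The set was chosen after these values were seen and carries no test. Without the 2 arrays that stood apart the range was 0.60 to 0.95. For the pair Clec4f and Vsig4, r was 0.958 and Spearman's rho 0.950 (permutation within groups, adjusted p = 8.08e-05 and 8.75e-05 over 105 pairs of probe sets, n = 20), and r was 0.936 without the 2 mice farthest from the median of Clec4f. The raw p of 1e-05 is the smallest that 100000 resamples can give. The 3 C1q chains had correlations of 0.86 to 0.95 with each other. Marco correlated with the other 9 at 0.19 to 0.49 and Cd163 at 0.11 to 0.26. Over all 45 pairs the range was -0.08 to 0.96, with a median of 0.49.

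The same deviations moved with the first principal component. Its correlation with the within-group deviation was -0.79 for Clec4f, -0.76 for C1qb, -0.76 for Timd4, -0.72 for Vsig4, -0.64 for C1qa, -0.53 for C1qc and -0.49 for Cd5l. It was 0.08 for Marco, -0.04 for Cd163 and 0.59 for Csf1r. Without the 2 arrays that stood apart, and that weigh most in the component, it was 0.245 for Csf1r (rho over all 20 arrays 0.367) and between -0.708 for C1qb and -0.348 for Cd5l in the 7. With the component removed from both members of a pair, the 21 pairs still correlated at 0.49 to 0.93 (median 0.81).

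The genes of the whole array most like Clec4f in their deviations over the 20 arrays were Ctss (r = 0.97), Cd53 (0.97), Vsig4 (0.96), Folr2 (0.95) and Cfp (0.94). Ctss encodes the lysosomal protease cathepsin S, Cd53 a tetraspanin of leukocytes, Folr2 a folate receptor of macrophages and Cfp the complement factor properdin. Those most like C1qa were Vsig4 (0.95), C1qc (0.95), Folr2 (0.93), Ly86 (0.93) and Clec4f (0.92). These are the 5 highest of 16053 genes in each case and carry no test.

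Csf1r stood apart from this set by its brightest probe set and not by its dimmest. 1419872_at measured 9.30, 9.70, 9.22, 9.42 and 9.43 in PB 90-day livers, against 10.32, 9.52, 9.01, 9.80 and 10.05 in vehicle livers. At 28 days it measured 10.01, 10.28, 10.42, 10.67 and 8.58 in PB livers, against 9.73, 9.95, 9.35, 10.59 and 9.57 in vehicle livers. PB 28-day replicate 5, the mouse with the highest Clec4f of the series, had the lowest value of this probe set. Its correlation with Clec4f was -0.05 (rho 0.10, permutation within groups, adjusted p = 0.857 and 0.759, n = 20, and r = -0.09 without the 2 mice farthest from the median of Clec4f). That of 1423593_a_at was 0.72 (rho 0.71, adjusted p = 0.00235 and 0.00331, n = 20, permutation within groups; r = 0.66 without the 2 mice). Without the 2 arrays that stood apart the correlations with Clec4f were 0.40 for 1419872_at, 0.55 for 1419873_s_at and 0.88 for 1423593_a_at. With the first component removed they were 0.82, 0.90 and 0.81. Their correlations with the component itself were 0.59, 0.50 and -0.31, and 0.245, 0.141 and -0.536 without the 2 arrays that stood apart. The 2 brighter probe sets correlated with each other at 0.94, and with 1423593_a_at at 0.45 and 0.53. The genes most like 1419872_at were Lonp2, a protease of peroxisomes (r = 0.84), Acp5, an acid phosphatase of macrophages and osteoclasts (0.84), Gltp (0.82), Tmem82 (0.82) and Serpina1c, a protease inhibitor secreted by hepatocytes (0.82). These were 0.71, 0.69, 0.80, 0.67 and 0.65 in the same order without the 2 arrays that stood apart.

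**Figure D4:**
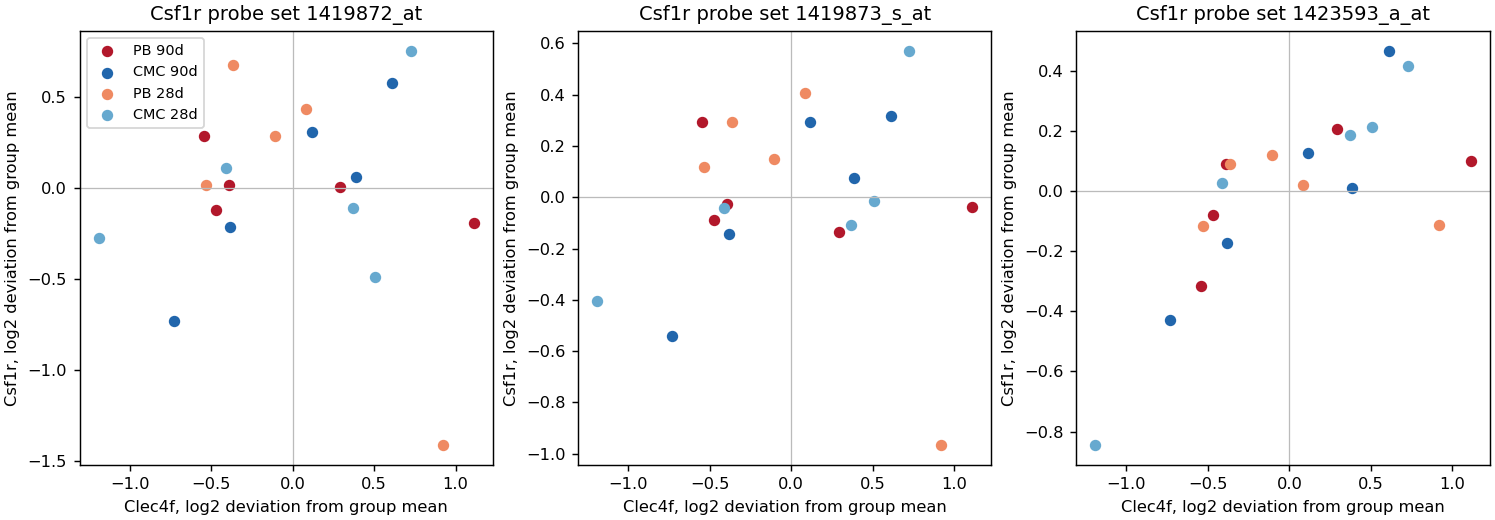
Deviation of each Csf1r probe set from its group mean (y axis, log2 units, a separate scale per panel) against that of Clec4f (x axis, log2 units) in 20 mice, coloured by group. PB 28-day replicate 5 is the point at the lower right of the first 2 panels; in the third panel Csf1r follows Clec4f with r = 0.72.

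Other genes of Kupffer cells had list medians nearer 0 than those of the 10 markers, a difference that was not tested, while single genes such as Id3 at 28 days exceeded every marker. Of 16 further Kupffer cell genes 15 were tested, and 0 were called in any comparison. Their median was -0.07 for PB against vehicle at 90 days and 0.08 at 28 days, -0.38 for 90 against 28 days under PB and -0.23 in the vehicle. Adgre1, which encodes the macrophage antigen F4/80, differed by 0.05 ± 0.31 and 0.41 ± 0.31 under PB at 90 and 28 days, and Clec1b, a lectin receptor of platelets and Kupffer cells, by 0.33 ± 0.26 and 0.07 ± 0.26. Nr1h3, the nuclear receptor that maintains Kupffer cell identity, differed by 0.22 ± 0.21 and 0.08 ± 0.21. Adgre1 differed by -0.18 and 0.21, and Nr1h3 by 0.04 and -0.06, without the 2 arrays that stood apart. Id3, a regulator needed for Kupffer cell development, had the smallest p of this list at 28 days (-0.77 ± 0.35, adjusted p = 1), and the adhesion molecule Vcam1 at 90 days (0.30 ± 0.14, adjusted p = 0.816).

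Genes shared by myeloid cells were also mostly lower at 90 days. Of 18 tested, 17 were lower at 90 than at 28 days under PB, against 49.7% of all genes, with a median of -0.49 and 5 at an unadjusted p under 0.05, against 2.27%. In the vehicle 13 of 18 were lower, against 54.2% of all genes, with a median of -0.29 and 3 at that level, against 3.66%. Cd68, a lysosomal glycoprotein of macrophages, differed by -0.95 ± 0.23 under PB (adjusted p = 0.815) and by -0.28 ± 0.23 in the vehicle. Lyz2, the lysozyme of macrophages and neutrophils, differed by -1.15 ± 0.56 under PB and by -1.76 ± 0.56 in the vehicle (adjusted p = 0.636). Under PB against vehicle the 18 genes had a median of -0.01 at 90 days, where Laptm5, a lysosomal protein of leukocytes, had the smallest p (-0.66 ± 0.36, and -0.40 without the 2 arrays that stood apart). It was 0.17 at 28 days, where the actin-binding Coro1a had the smallest p (0.50 ± 0.22). None of the 18 was called.

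**Figure D5:**
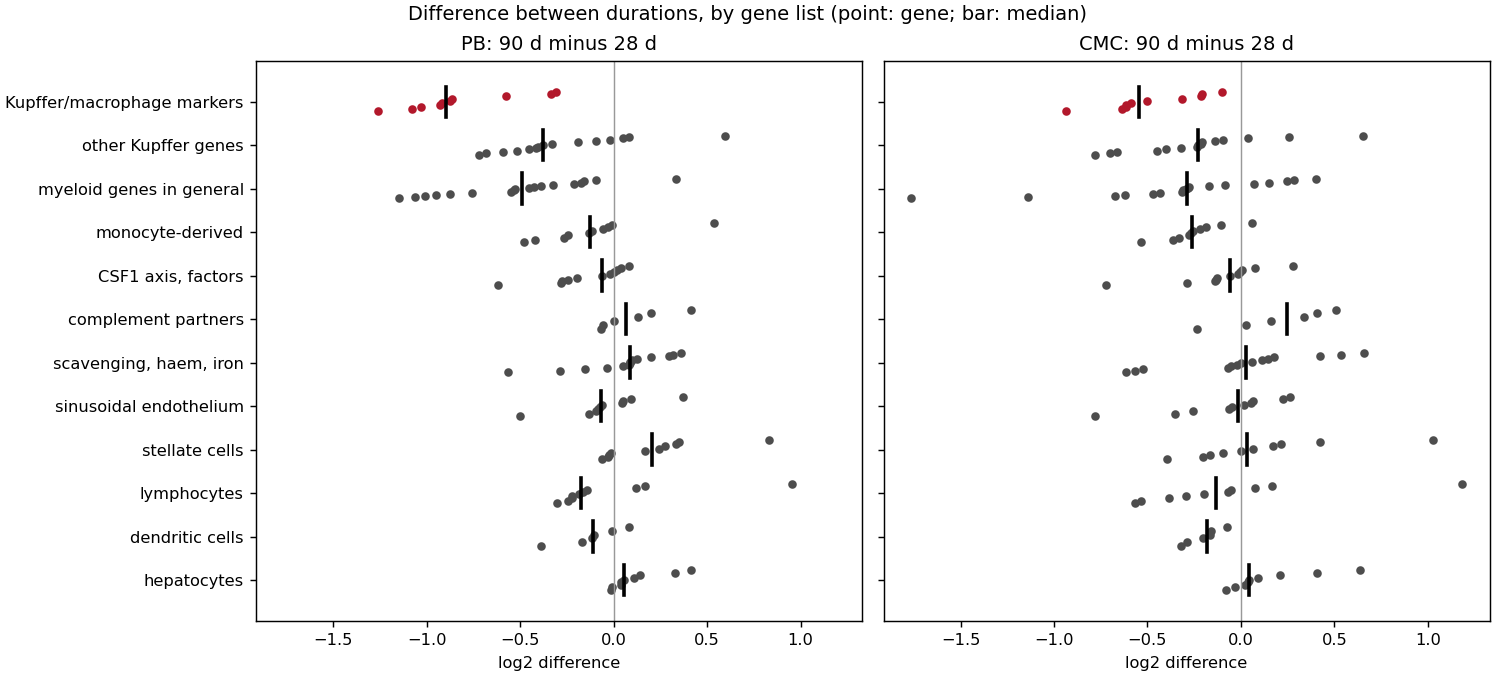
Log2 difference between 90 and 28 days (x axis) of each tested gene (points) in 12 lists (rows), under PB (left) and in the vehicle (right); bars are list medians. The markers have medians of -0.90 and -0.54, the other Kupffer genes -0.38 and -0.23 and the myeloid genes -0.49 and -0.29, while the endothelial (-0.07 and -0.01) and hepatocyte (0.06 and 0.04) lists lie near 0.

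Markers of monocytes and other leukocytes had positive medians under PB with all arrays. The 10 tested genes of monocyte-derived cells had a median of 0.16 at 90 days and 0.13 at 28 days, and of -0.12 between durations under PB and -0.26 in the vehicle. Ccr2, the chemokine receptor of monocytes, differed by 0.36 ± 0.18 at 90 days (adjusted p = 0.816) and 0.17 ± 0.18 at 28 days. S100a6, a calcium-binding protein, differed by 1.16 ± 0.39 at 90 days (adjusted p = 0.816) and 0.34 ± 0.39 at 28 days. Gpnmb, a glycoprotein of lipid-laden macrophages, differed by 0.12 ± 0.15 and 0.26 ± 0.15. Without the 2 arrays that stood apart, Ccr2 differed by 0.27 and 0.10, S100a6 by 0.88 and 0.27, and Gpnmb by 0.05 and 0.10. Of 10 neutrophil genes 1 was called: S100a8 rose by 6.28 ± 1.13 log2 units at 90 days (adjusted p = 0.0163) and differed by 5.06 ± 1.13 at 28 days (adjusted p = 0.248). Its mean PB effect over both durations was 5.67 ± 0.80 (adjusted p = 0.00067), and it was called with each of the 20 mice left out in turn. Leaving out 1 of the 10 mice at 90 days gave 5.85 to 7.80, with the 90-day call lost for 8 of them (adjusted p up to 0.0776). The summed signal of the 10 neutrophil genes, in log2 units, was 8.55 in the lowest PB 90-day mouse, against a PB 90-day median of 13.03. That mouse lay within the 90-day vehicle range of 8.36 to 8.60. S100a8 was called at both durations without the 2 arrays that stood apart, at 5.91 for 90 days (adjusted p = 0.0148) and 5.95 for 28 days (adjusted p = 0.0261). At 90 days its partner S100a9 differed by -0.01 ± 0.32. Dendritic cell genes (6 tested) had medians of 0.14 and 0.04, with the lectin gene Cd209a at 0.23 ± 0.14 at 90 days and the dendritic cell factor Zbtb46 at 0.20 ± 0.14 at 28 days. Lymphocyte genes (10 tested) had medians of 0.22 and 0.18, with the B cell gene Cd79b at 0.27 ± 0.16 and 0.26 ± 0.16. Without the 2 arrays that stood apart, Cd209a was at 0.16 at 90 days and Zbtb46 at 0.09 at 28 days. Cd79b was then at 0.22 and 0.16. Blood cells left in the tissue carry transcripts of several of these lists, and their part in the values was not tested. The haemoglobin gene Hba-a2 differed by -0.64 ± 0.29 between durations under PB and by -0.43 ± 0.29 in the vehicle, and Alas2, of red cell haem synthesis, by 0.35 ± 0.19 and 0.07 ± 0.19.

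None of the partners of C1q was called, and none of the genes of scavenging, haem and iron. C1ra, a protease that binds C1q and is made in hepatocytes, differed by -0.31 ± 0.37 under PB at 90 days and -0.21 ± 0.37 at 28 days, and Serping1, the inhibitor of the complex, by -0.47 ± 0.39 and -0.19 ± 0.39. C2 and Cfi, of the same cascade, differed by -0.29 ± 0.34 and -0.17 ± 0.11 at 90 days. When the 2 arrays that stood apart were left out, C1ra differed by -0.04 at 90 days and 0.22 at 28 days, Serping1 by -0.24 and 0.23, and C2 by -0.10 at 90 days. Between durations the 6 tested complement partners had medians of 0.07 under PB and 0.25 in the vehicle; the 3 C1q chains were negative in both. Hp, the haptoglobin that binds free haemoglobin in plasma, differed by -0.10 ± 0.19 and 0.02 ± 0.19 under PB. Without the 2 arrays Hp differed by -0.09 and 0.21. Hmox1, which breaks down the haem, differed by 0.15 ± 0.19 and -0.22 ± 0.19, and the iron exporter Slc40a1 by -0.30 ± 0.19 and 0.07 ± 0.19. Hamp, the hepatocyte hormone that removes this exporter, differed by -0.60 ± 0.36 at 90 days and -0.76 ± 0.36 at 28 days (adjusted p = 0.816 and 1), and by -0.69 and -0.47 without the 2 arrays. Stab1, a scavenger receptor of sinusoidal cells, differed by 0.33 ± 0.19 and 0.20 ± 0.19. Of the 14 tested genes of scavenging, haem and iron 0 were called.

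The cells beside the Kupffer cells in the sinusoid gave no call either. The 10 endothelial genes had medians of 0.15 and 0.05 under PB at 90 and 28 days, with the hyaluronan scavenger Stab2 at -0.16 ± 0.35 and -0.27 ± 0.35, another hyaluronan receptor, Lyve1, at 0.70 ± 0.47 and 0.42 ± 0.47 and the cadherin gene Cdh5 at 0.20 ± 0.19 and 0.36 ± 0.19. Stab2 was at 0.11 and 0.05, and Lyve1 at 0.41 and 0.68, without the 2 arrays that stood apart. The 10 stellate cell genes had medians of 0.06 and 0.07. The smallest p among them at 90 days was that of Col3a1, a fibrillar collagen (0.88 ± 0.26, adjusted p = 0.617), and at 28 days that of Lrat, which stores retinol (-0.67 ± 0.46). The 9 tested hepatocyte genes had medians of -0.14 and -0.07, with the apolipoprotein gene Apob at -0.94 ± 0.63 at 90 days and the aminotransferase gene Tat at -0.88 ± 0.45 at 28 days, which without the 2 arrays were -0.38 and -0.39. Of the factors tied to macrophage identity, Cebpb (-0.77 ± 0.44) and Runx1 (0.23 ± 0.14) had the smallest p at 90 and at 28 days, and neither was called. Without the 2 arrays these differences were -0.52 and 0.14.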

How the data were processed

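Liver RNA of 20 mice was measured, 1 array per mouse. The authors deposited log2 intensities made with RMA, per the submitters' processing notes; its version and a genome build are not given in the sources used here. RMA compresses differences near background and saturation. No array column was left unused (0). Groups and replicate numbers come from the sample titles. Of 45037 probe sets 34945 had 1 symbol in the platform annotation, 932 several and 9160 none; those with 1 were used, and the probe set with the highest mean stood for a gene. Genes above the array's 25th percentile on at least 5 arrays were kept (16054 kept, 2139 removed). Limma 3.58.1 (R 4.3.3) fitted 1 mean per group with an intensity trend, 16 residual degrees of freedom and 6 contrasts, with Benjamini-Hochberg adjustment over all genes. The fit was tested on simulated data with independent noise of equal spread on all arrays. That test does not cover the variation that these arrays share. Precision is set by the 5 arrays per group. Correlations used deviations from group means, permuted within groups. The labels state no pairing, and same-numbered mice correlated at -0.60 to 0.36 in their deviations over all genes. These correlations hold the first component too and cannot exclude a pairing.

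The markers and the 14 other gene lists were chosen with earlier results of these data known. Named were all markers, a set of 20 related genes where tested, and from every other list each gene called, or else the gene with the smallest p under PB at each duration; for Clec4f, C1qa and Csf1r also the 5 genes of most similar deviation. Alternatives covered filters, probe set choice, variance prior, samples in the fit, array weights, normalization, a replicate block, the first component as a covariate, and removal of arrays.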

Additional observations from a re-analysis of the deposited data

Results flagged for a closer look

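In 5 of the 60 groups of 5 mice examined (15 probe sets in 4 groups), 1 mouse lay farther from its neighbour than Dixon's criterion of 0.71 of the range allows; chance flags about 1 in 20 groups. Timd4 was 6.85 in PB 28-day replicate 5, with the next mouse at 5.76. The same mouse had the lowest value of its group for Csf1r by 1419873_s_at, 7.04, with the next at 8.13, and it is 1 of the 2 arrays that stood apart on the first principal component. For the same Csf1r probe set, PB 90-day replicate 2 was the highest at 7.84, with the next at 7.52. Marco by 1449498_at was highest in CMC 28-day replicate 4 at 7.05, with the next at 6.47, and by 1458297_s_at in CMC 28-day replicate 1 at 5.47, with the next at 4.97. The probe sets of Marco thus pointed to different mice.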

How the results depend on the processing

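In 33 alternative settings, 20 of them the removal of 1 array, 0 markers were called in any of the 6 comparisons, and the lowest adjusted p of a marker was 0.269. Of 1960 alternative values 81 changed sign against the value reported, 45 of them in the mean of both PB effects, where most markers lay near 0, and 0 in the comparison of 90 with 28 days under PB. The difference of Marco under PB, by its brighter probe set or the mean of both, was negative in all settings, -0.68 to -0.26 at 90 days and -0.50 to -0.15 at 28 days, the smallest with the mean; the other probe set tested singly gave 0.04 and 0.12. With the first component as a covariate, 9 of 10 markers were negative under PB at 90 days, with a median of -0.51 and a lowest adjusted p of 0.564 in limma. Centring on the 75th percentile moved the median of all genes to -0.15 in the vehicle comparison between durations, against -0.03, and the marker median to -0.66. With the replicate block, although the labels state no pairing, 0 markers were called, and all genes called numbered 22 in place of 23 at 90 days and 29 in place of 34 for the mean PB effect. The 5 mice per group and the dimness of Timd4 and of the second Marco probe set limit what could be detected.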
